A study of Mus musculus with 6 samples.

Results

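The 10 genes described here encode serpins of a single cluster on mouse chromosome 12: the 5 copies of the Serpina1 family (*Serpina1a* to *Serpina1e*), 4 genes of the Serpina3 family (*Serpina3g*, *Serpina3k*, *Serpina3m* and *Serpina3n*) and *Serpina6*. They were found by gene symbol among the 25403 genes of the count table, in which each has 1 row. All 10 passed the filter on low counts, which left 14496 genes. The data are bulk RNA-seq of whole liver from 6 mice, 3 labelled wild-type C57BL6/J (WT) and 3 labelled Themis KO (Themis-KO), 1 library per mouse. Both groups received the AMYLIN liver NASH diet, a diet that causes metabolic dysfunction-associated steatohepatitis (MASH), for 3 months from an age of 10 to 12 weeks. Fat supplied 40 kcal% of it, fructose supplied 20 kcal%, and cholesterol made up 2%. *Themis* encodes a regulator of T cell receptor signaling. The study describes the Themis-KO line as a whole-body knockout, so that hepatocytes and T cells alike are meant to lack the gene. The methods name a purchased stock for WT mice and a line from another laboratory for Themis-KO. The study calls its chow-fed WT and Themis-KO mice littermates and the sequenced livers pairs, without stating what the livers of a pair share or whether the mice on the MASH diet were littermates. No liver from chow-fed mice was part of the comparison.

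Most serpins trap proteases. The target protease cuts a stretch of the serpin called the reactive center loop, and the serpin then changes shape and holds the enzyme in an inactive complex. Hepatocytes secrete most of the alpha-1 antitrypsin and antichymotrypsin found in blood, and both belong to the acute phase proteins. Humans carry a single gene for each, *SERPINA1* and *SERPINA3*, whereas mice carry several copies that differ mainly in the reactive center loop. *Serpina6* encodes corticosteroid-binding globulin, a serpin that does not inhibit proteases and carries glucocorticoids in plasma.

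The Serpina1 copies are close to identical, which limits how short reads can be divided among them. Across their coding sequences, as annotated in GENCODE vM21, pairs of Serpina1 copies were 96.3% to 98.5% identical, and *Serpina1a* and *Serpina1c* were the closest pair. Variable positions made up 86 of 1239 aligned bases (6.94%), but 18 of the 60 bases in the most variable stretch. That stretch lies in the last exon of each gene, in the part that encodes the reactive center loop, and is shown because it holds the bases by which the copies are told apart. Capitals mark positions at which the 5 copies differ, all on the minus strand of GRCm38.
Serpina1a, chr12:103853757-103853816: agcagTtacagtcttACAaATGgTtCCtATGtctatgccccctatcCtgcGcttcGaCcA
Serpina1b, chr12:103728324-103728383: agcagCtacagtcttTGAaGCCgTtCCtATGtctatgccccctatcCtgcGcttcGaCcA
Serpina1c, chr12:103895094-103895153: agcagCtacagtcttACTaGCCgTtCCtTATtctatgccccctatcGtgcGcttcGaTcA
Serpina1d, chr12:103763762-103763821: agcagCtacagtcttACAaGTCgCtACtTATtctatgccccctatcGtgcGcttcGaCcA
Serpina1e, chr12:103947100-103947159: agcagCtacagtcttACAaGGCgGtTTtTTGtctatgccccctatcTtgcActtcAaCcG

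The Serpina3 genes are less alike. *Serpina3k* and *Serpina3m* shared 91.4% of aligned coding bases and the other Serpina3 pairs 80.4% to 85.2%. The matching stretch of the Serpina3 genes, again in the last exon and on the plus strand, differed at 29 of 60 positions (48.3%), and capitals mark them.
Serpina3g, chr12:104241069-104241128: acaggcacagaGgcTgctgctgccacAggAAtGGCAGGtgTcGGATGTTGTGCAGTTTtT
Serpina3k, chr12:104345266-104345325: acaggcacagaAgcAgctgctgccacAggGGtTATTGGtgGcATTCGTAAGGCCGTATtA
Serpina3m, chr12:104393766-104393825: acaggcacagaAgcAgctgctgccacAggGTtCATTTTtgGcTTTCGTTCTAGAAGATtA
Serpina3n, chr12:104413445-104413504: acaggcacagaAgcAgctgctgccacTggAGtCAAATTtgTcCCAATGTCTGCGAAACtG

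The share of each transcript's 100-base windows found in no other gene also differed between the copies. The sequenced reads were paired and longer than these windows, so the shares are not those of assignable reads. Of all 100-base windows of the *Serpina1c* transcript, 41.5% occurred in no transcript of another gene, and 58.0% also occurred in *Serpina1a*. The unique share was 50.1% for *Serpina1a*, 70.7% for *Serpina1d*, 79.4% for *Serpina1b* and 85.2% for *Serpina1e*. It was 93.9% to 99.8% for the Serpina3 genes and 100% for *Serpina6*. Counts of single Serpina1 copies therefore depend on how the estimation software split shared reads, so the sum over each family is given beside them. The annotated gene spans of *Serpina1b* and *Serpina1d* overlap by 9999 bases and those of *Serpina3k* and *Serpina3m* by 7659 bases, on the same strand.

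The 6 libraries held 20679642 to 25649767 counts. The libraries called WT 1 and WT 2 stood apart from the other 4 in the balance of *Gm28438* and *mt-Nd3*. The counts shared by *Gm28438* and the mitochondrial gene *mt-Nd3* fell into 2 types. *Gm28438* took 96.6% and 96.8% of their summed counts in WT 1 and WT 2, 2.20% in WT 3 and 2.27% to 3.26% in the Themis-KO livers. WT 3 was thus the only WT liver of the type seen in all Themis-KO livers. The labels name no batch that matches this split. Over all tested genes WT 1 and WT 2 were each closer to WT 3 (chi-square per degree of freedom 27.4 and 28.2) than to each other (35.5). *Themis* itself did not separate the labels: it stood at 8.07, 25.6 and 12.0 CPM (counts scaled to a common library size) in the WT livers and at 8.63, 7.74 and 9.97 CPM in the Themis-KO livers (adjusted p = 0.199). Gene counts do not show which exons these reads came from, so the groups below are the livers labelled WT and Themis-KO. *Xist* had at most 8 counts and 4 genes of the Y chromosome were counted in all 6 livers.

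In livers labelled Themis-KO the Serpina1 family was lower as a whole and in 4 of its 5 copies, *Serpina3k* was lower, and *Serpina3g* was higher. Of the 10 genes 5 were called lower at an adjusted p under 0.05 in edgeR's quasi-likelihood test, where 4.14% of all tested genes were called lower. *Serpina3g* was the 1 gene called higher, against 4.97% of all tested genes. The other 4 were not called. DESeq2 called 7 of the 10 lower (7.52% of all tested genes), as did edgeR without a filter on low counts (3.81%). In 6 of the 10 genes every Themis-KO liver lay below every WT liver, as in 16.9% of all tested genes, and in 1 gene every Themis-KO liver lay above, as in 17.7%. The median log2 fold change was -0.65 over the 10 genes and 0.01 over all tested genes. These are whole-liver RNA levels, in which fewer hepatocytes and less serpin RNA per hepatocyte cannot be told apart.

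**Figure D1:**
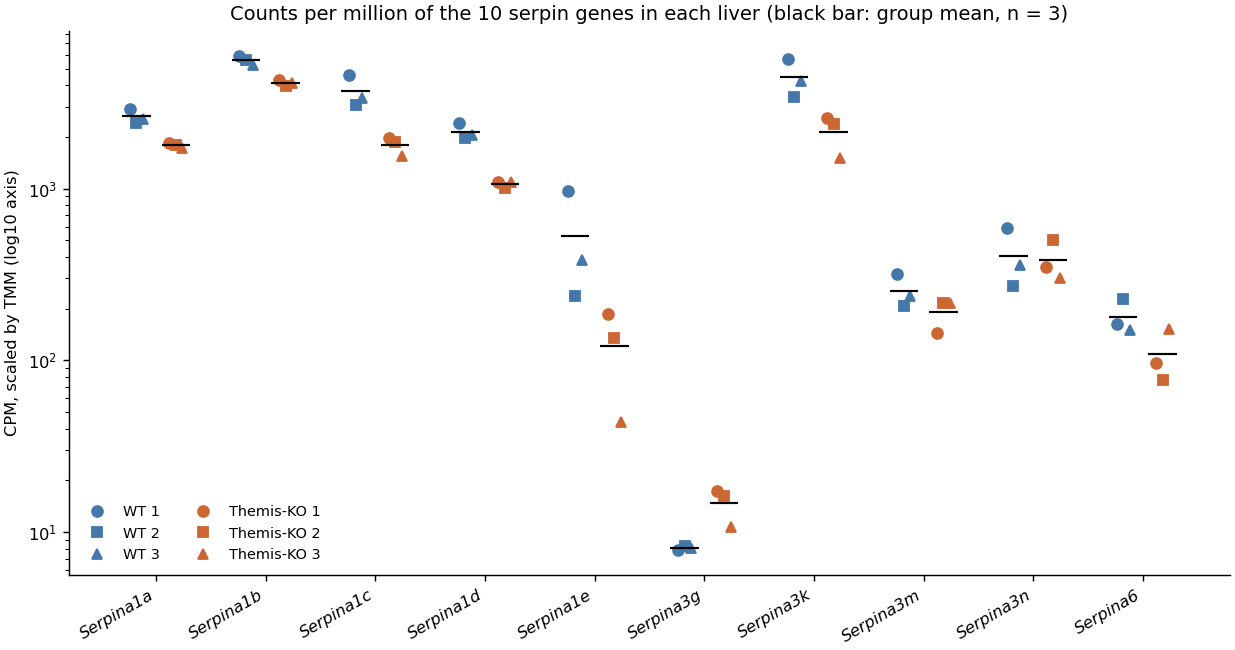
CPM of the 10 serpin genes in each of the 6 livers on a log10 axis, with WT livers in blue, Themis-KO livers in orange and a black bar at each group mean (n = 3). The groups are separate for the 5 Serpina1 copies, for *Serpina3k* and, in the other direction, for *Serpina3g*, and they overlap for *Serpina3m*, *Serpina3n* and *Serpina6*.

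The summed Serpina1 counts, which do not depend on how reads were divided among the copies, stood at 16815, 13325 and 13612 CPM in the WT livers and at 9362, 8770 and 8551 CPM in the Themis-KO livers. Every Themis-KO liver lay below every WT liver. The mean was 14584 ± 1937 CPM in WT (SD, n = 3) and 8894 ± 419 CPM in Themis-KO, a ratio of 0.61. On the log2 scale the difference was -0.71 (SE 0.13) with an adjusted p of 0.0261, in a table with summed families in which 4.11% of features were called lower. As a share of all counts without further scaling, the Serpina1 family took 1.57%, 1.25% and 1.35% in WT and 0.984%, 0.939% and 0.876% in Themis-KO. The 10 genes together took 1.64% to 2.20% of all counts in WT and 1.10% to 1.32% in Themis-KO.

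*Serpina1d* carried the smallest adjusted p of the 10 genes. It stood at 2401, 1959 and 2046 CPM in WT and at 1091, 1014 and 1086 CPM in Themis-KO. The Themis-KO livers were at 0.498 times the WT mean and spread less than the WT livers (SD 43.2 against 235 CPM). This was a log2 difference of -1.01 with an SE of 0.11 (adjusted p = 0.00936).

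*Serpina1c* fell by a like amount with more spread. It stood at 4596, 3084 and 3390 CPM in WT and at 1982, 1876 and 1547 CPM in Themis-KO, and WT 1 was the highest liver. Its log2 difference of -1.03 had an SE of 0.17 and an adjusted p of 0.0226. *Serpina1c* shares more 100-base windows with *Serpina1a* than it has to itself. Its level may depend more on the division of shared reads than those of the other copies, an error that the SE does not include.

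*Serpina1a* and *Serpina1b* fell by less. *Serpina1a* stood at 2924, 2417 and 2559 CPM in WT and at 1839, 1784 and 1730 CPM in Themis-KO (log2 fold change -0.56, SE 0.11, adjusted p = 0.0288). *Serpina1b*, the copy with the most counts, stood at 5921, 5630 and 5234 CPM in WT and at 4264, 3961 and 4144 CPM in Themis-KO (log2 fold change -0.44, SE 0.10, adjusted p = 0.0407). The groups did not overlap for either gene. The SD of *Serpina1a* was 262 CPM in WT and 54.4 CPM in Themis-KO, and that of *Serpina1b* was 345 and 152 CPM.

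*Serpina1e* had the largest fold difference of the 10 genes and was not called by edgeR. It stood at 972, 235 and 384 CPM in WT and at 186, 135 and 43.5 CPM in Themis-KO. The groups did not overlap, but WT 1 was well above the other WT livers and Themis-KO 3 well below the other Themis-KO livers. The fitted log2 difference was -2.13 with an SE of 0.63 (adjusted p = 0.0710), and leaving out 1 liver at a time gave values from -2.58 to -1.35. DESeq2 called it (adjusted p = 0.0407), as did edgeR without a filter on low counts (adjusted p = 0.00578).

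The shares of the copies in the summed counts differed between the groups by amounts that the design could not call at an adjusted p under 0.05, and they rest on how RSEM divided shared reads. *Serpina1b* took 35.2%, 42.3% and 38.4% of the summed Serpina1 counts in WT and 45.5%, 45.2% and 48.5% in Themis-KO. *Serpina1d* took 14.7% ± 0.375 (SD, n = 3) in WT and 12.0% ± 0.632 in Themis-KO. *Serpina1c* took 25.1% ± 2.10 in WT and 20.2% ± 1.84 in Themis-KO, and *Serpina1a* took 18.1% ± 0.704 and 20.1% ± 0.377. The groups did not overlap for these 4 shares, and each gave p = 0.1 in an exact two-sided permutation test, the smallest p that 3 against 3 livers allow (0.129 after adjustment over the 9 shares of both families). The share of *Serpina1e* overlapped between groups (3.46% ± 2.08 and 1.34% ± 0.756, exact permutation p = 0.2). The shares of a family add up to a fixed total, so they do not vary independently.

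**Figure D2:**
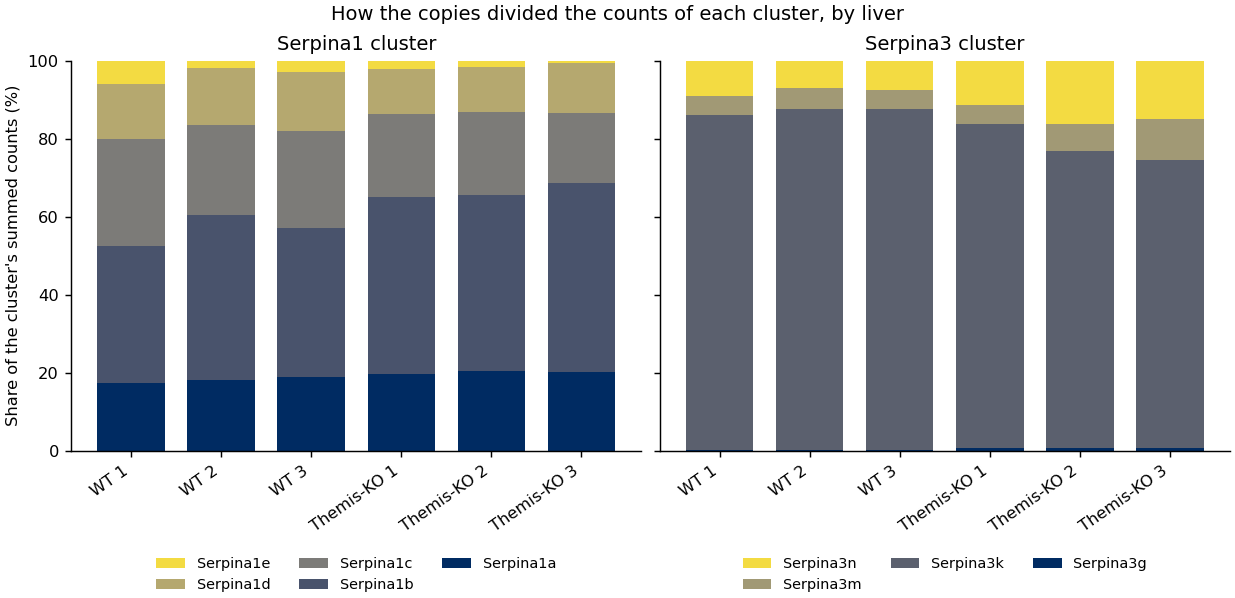
Share of each copy in the summed counts of the Serpina1 family (left) and the Serpina3 family (right), in percent, with 1 stacked bar per liver. *Serpina1b* takes 45.2% to 48.5% of the Serpina1 counts in the Themis-KO livers and 35.2% to 42.3% in the WT livers, and *Serpina3k* takes most of the Serpina3 counts in every liver.

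In the Serpina3 family, named for antichymotrypsin, 1 gene fell, 1 rose and 2 were not called. *Serpina3k*, known as a kallikrein-binding protein of plasma and the gene with the most counts of the 4, stood at 5706, 3429 and 4232 CPM in WT and at 2560, 2392 and 1498 CPM in Themis-KO. The groups did not overlap, WT 1 was again the highest liver and Themis-KO 3 the lowest. The mean was 4456 ± 1155 CPM in WT and 2150 ± 570 CPM in Themis-KO, which is -1.05 on the log2 scale with an SE of 0.25 (adjusted p = 0.0419). Scaling by total counts alone gave an adjusted p of 0.0517.

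*Serpina3g*, an inhibitor of cysteine cathepsins known from T cells and macrophages, was the least abundant of the 10 genes and moved the other way. It stood at 7.84, 8.30 and 8.09 CPM in WT and at 17.3, 16.3 and 10.7 CPM in Themis-KO, from 171 to 408 counts per liver. The WT livers were close together, and Themis-KO 3 lay nearest to them. On the log2 scale it rose by 0.87 (SE 0.19), with an adjusted p of 0.0356. Its neighbor *Serpina3f* stood at 3.21, 3.12 and 3.08 CPM in WT and at 4.76, 6.06 and 3.21 CPM in Themis-KO, and was not called (log2 fold change 0.58, SE 0.24, adjusted p = 0.147).

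*Serpina3n*, the acute phase gene of the family and the closest counterpart of human antichymotrypsin, gave no call. It stood at 592, 271 and 358 CPM in WT and at 350, 504 and 302 CPM in Themis-KO. The groups overlapped over most of their range, and the log2 fold change of -0.08 (SE 0.30, adjusted p = 0.876) changed its sign in 4 of the alternative settings, reaching 0.29 without WT 1. *Serpina3m* stood at 317, 207 and 237 CPM in WT and at 145, 215 and 215 CPM in Themis-KO, and was not called either (log2 fold change -0.40, SE 0.20, adjusted p = 0.211).

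The summed Serpina3 counts followed *Serpina3k*, which took 86.2% to 87.6% of them in WT and 74.0% to 83.3% in Themis-KO. The sum stood at 6622, 3915 and 4834 CPM in WT and at 3072, 3126 and 2025 CPM in Themis-KO. The groups did not overlap. Its log2 difference of -0.90 (SE 0.23) had an adjusted p of 0.0518 and was not called. Without the *Serpina3n* row the adjusted p was 0.0413. *Serpina3n* took 7.75% ± 1.05 of the family's counts in WT and 14.1% ± 2.45 in Themis-KO, without overlap (exact permutation p = 0.1). The share of *Serpina3g* was 0.166% ± 0.0468 and 0.538% ± 0.0234, also without overlap (exact permutation p = 0.1). For *Serpina3m* the shares overlapped (4.99% ± 0.263 and 7.40% ± 2.97, exact permutation p = 0.4).

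*Serpina6*, the glucocorticoid carrier, stood at 162, 227 and 149 CPM in WT and at 96.6, 76.4 and 151 CPM in Themis-KO. Themis-KO 3 lay at the level of WT 3, so the groups overlapped. Its log2 difference was -0.73 with an SE of 0.26 (adjusted p = 0.108), and DESeq2 called it lower (adjusted p = 0.0228). Without Themis-KO 3 it was -1.07 (adjusted p = 0.00901).

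Per kilobase of transcript, the scale on which genes can be compared, the order within WT was *Serpina1b* (3175 ± 196 CPM per kb), *Serpina1c* (2711 ± 587), *Serpina3k* (2166 ± 561), *Serpina1a* (1666 ± 166), *Serpina1d* (1532 ± 168), *Serpina1e* (337 ± 247), *Serpina3n* (197 ± 80.3), *Serpina3m* (153 ± 34.3), *Serpina6* (112 ± 26.0) and *Serpina3g* (4.48 ± 0.127). The ranges of mean ± SD overlapped between neighbors in this order, apart from *Serpina1d* above *Serpina1e* and *Serpina6* above *Serpina3g*. In Themis-KO *Serpina1b* (2340 ± 86.4 CPM per kb) stood clear of *Serpina1c* (1324 ± 167), *Serpina1a* (1129 ± 34.4), *Serpina3k* (1045 ± 277) and *Serpina1d* (763 ± 31.0). *Serpina1e* (77.0 ± 45.7) there lay below *Serpina3n* (187 ± 51.1) and beside *Serpina3m* (115 ± 24.4) and *Serpina6* (67.3 ± 24.1), and *Serpina3g* (8.19 ± 1.99) remained the lowest.

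Along chromosome 12, in an interval of 799.5 kb (GRCm38, chr12:103614786-104414329), called and uncalled genes lay side by side. From the proximal end come *Serpina10*, *Serpina6*, the Serpina1 copies in the order *Serpina1b*, *Serpina1d*, *Serpina1a*, *Serpina1c* and *Serpina1e*, then *Serpina11*, *Serpina12* and *Serpina4-ps1*, and last the Serpina3 genes. Of the neighboring serpin genes 14 were in the table and 5 could be tested, of which 1 was called lower. None was called higher by edgeR or DESeq2, and 1 was higher at an unadjusted p under 0.05, which 16.8% of all tested genes passed as higher and 13.9% as lower. The lower gene was *Serpina4-ps1*, an unprocessed pseudogene at chr12:104080649-104086724. It stood at 78.9, 39.8 and 37.4 CPM in WT and at 9.26, 7.27 and 3.78 CPM in Themis-KO, -2.93 on the log2 scale with an SE of 0.39 (adjusted p = 0.0129), a larger difference than that of any of the 10 genes. *Serpina10*, the inhibitor of factor Xa dependent on protein Z, was not called (log2 fold change -0.24, adjusted p = 0.502), and *Serpina12*, which encodes vaspin, was at the same mean in both groups (53.9 CPM, log2 fold change 0.00, SE 0.09). *Serpina9* was too low to be tested, with 12, 5 and 11 counts in WT and 1, 1 and 0 counts in Themis-KO.

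**Figure D3:**
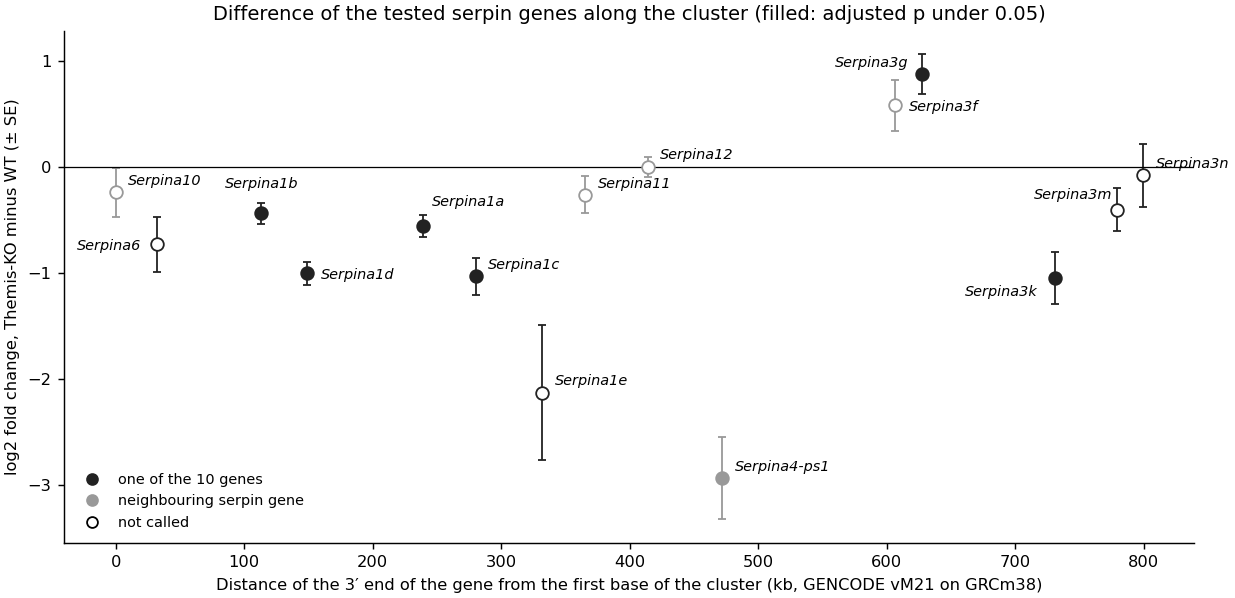
Log2 fold change (Themis-KO minus WT, ± SE from the edgeR fit) of the tested serpin genes against the distance of each gene's 3′ end from the first base of the cluster in kb. Black symbols are the 10 genes, gray symbols their serpin neighbors and filled symbols genes called at an adjusted p under 0.05; *Serpina12* at 0.00 and *Serpina4-ps1* at -2.93 are both neighbors of the lower Serpina1 copies.

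Genes that are not serpins of this group were also tested around the cluster. Within 500 kb of its ends 10 such genes were tested, 8 before and 2 after it, and 2 more lay inside. The called ones, named after their values were seen, were *Ppp4r4*, 1.0 kb from *Serpina10* (log2 fold change -0.59, adjusted p = 0.0462), *Clmn*, 348.8 kb beyond the far end (-0.48, adjusted p = 0.0399) and the transcript *B430119L08Rik* inside the cluster (-1.32, adjusted p = 0.0374), which were lower, and the interferon-induced *Ifi27l2a* (0.71, adjusted p = 0.0425) and *Ifi27l2b* (0.59, adjusted p = 0.0389), which lay 171.1 and 157.6 kb before the cluster and were higher.

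The bases just before the transcription start were examined in RefSeq's promoter windows for GRCm38.p6, which held 7 of the 10 genes. Between pairs of Serpina1 copies, 92.1% to 98.0% of the 188 to 248 bases that could be aligned within the 250 before the start were identical. Each of the 5 Serpina1 windows held GTTAAT, part of the site of the hepatocyte factor HNF1, on either strand, as did 6.43% of all 32851 windows of that length. The 120 bases before the start are shown for the copy with the smallest and the copy with the largest fold difference, on the minus strand, with GTTAAT in capitals.
Serpina1b, chr12:103738190-103738309: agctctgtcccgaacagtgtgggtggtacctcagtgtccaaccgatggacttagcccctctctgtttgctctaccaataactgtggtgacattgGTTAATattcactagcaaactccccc
Serpina1e, chr12:103956898-103957017: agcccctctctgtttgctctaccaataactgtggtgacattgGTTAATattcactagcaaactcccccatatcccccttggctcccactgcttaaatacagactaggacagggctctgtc

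The copies thus share this stretch, at -26 to -21 from the RefSeq start in *Serpina1b* and at -78 to -73 in *Serpina1e*. The RefSeq start of *Serpina1e* lies further downstream of the stretch. In GENCODE vM21 the gene spans of *Serpina1b* and *Serpina1e* begin upstream of these windows, at 103830373 and 103958975. The C/EBP motif TTGCNNAA occurred in *Serpina1b*, *Serpina1d* and *Serpina1e* (9.56% of all windows), and AGAACA, part of the glucocorticoid receptor site, in all 5 Serpina1 windows and in *Serpina3n* (16.1%). The STAT motif TTCNNNGAA, which also covers sites of STAT3 and STAT5, occurred in *Serpina3g* alone among the 7 windows and in 7.02% of all windows. It is shown in capitals, at -33 to -25 on the plus strand, because *Serpina3g* was the 1 gene of the 10 that rose. These letter matches describe the windows and do not show that a factor was bound.
Serpina3g, chr12:104236027-104236146: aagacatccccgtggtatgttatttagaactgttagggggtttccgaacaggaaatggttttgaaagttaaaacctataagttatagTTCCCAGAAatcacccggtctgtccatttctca

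The other serpins of the liver moved in both directions. Of 11 other secreted serpins tested, edgeR called 2 lower and 1 higher. DESeq2 called 5 lower and 2 higher (7.52% and 8.82% of all tested genes). At an unadjusted p under 0.05 in edgeR 6 were lower and 4 higher, as were 13.9% and 16.8% of all tested genes. *Serpine2*, a thrombin inhibitor of tissues, fell (log2 fold change -1.12, SE 0.23, adjusted p = 0.0342), as did *Serpind1*, heparin cofactor II (-0.46, SE 0.10, adjusted p = 0.0366), while *Serpina7*, thyroxine-binding globulin, rose from 149 ± 9.34 to 227 ± 25.0 CPM (0.61, SE 0.11, adjusted p = 0.0241). *Serpinc1*, antithrombin, was the most abundant and was not called (-0.27, adjusted p = 0.117). Of 5 tested genes of the intracellular serpinb clade, *Serpinb6b* (0.98, adjusted p = 0.0386) and *Serpinb6a* (0.66, adjusted p = 0.0416) rose. None fell in edgeR or DESeq2, and at an unadjusted p under 0.05 4 were higher and 0 lower.

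Among 11 tested proteases that plasma or tissue serpins act on, or that lie in the same cascades, 3 fell and 1 rose. The plasma enzymes *Klkb1*, plasma kallikrein (log2 fold change -0.79, adjusted p = 0.0236), *F11*, coagulation factor XI (-0.78, adjusted p = 0.0223), and *Hgfac*, which activates hepatocyte growth factor (-0.53, adjusted p = 0.0306), were lower. The lysosomal cathepsin *Ctsb* was higher (0.35, adjusted p = 0.0498), and under 2 of the other scalings it was not called. *Plg*, plasminogen, the most abundant of the list, was not called (-0.52, adjusted p = 0.0516). The genes of neutrophil cathepsin G (*Ctsg*) and mast cell chymase (*Cma1*), targets of antichymotrypsin, had at most 3 counts in every liver.

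The acute phase genes, with which Serpina1 and Serpina3 genes are usually grouped, mostly gave no call. Of 26 tested genes of the acute phase response and interleukin 6 signaling 4 rose, 1 fell and 21 were not called, with a median log2 fold change of 0.03. *Lcn2*, lipocalin 2, rose from 65.7, 48.0 and 57.9 CPM in WT to 120, 197 and 128 CPM in Themis-KO (log2 fold change 1.37, adjusted p = 0.0161). *Osmr*, the oncostatin M receptor (1.23, adjusted p = 0.0336), and *Orm2*, an orosomucoid (0.64, adjusted p = 0.0185), also rose. *Lifr*, the receptor for leukemia inhibitory factor, fell (-0.56, adjusted p = 0.0462), and the heme carrier *Hpx* was not called (0.23, adjusted p = 0.219).

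Genes of other pathways known to bear on these serpins gave few calls in edgeR. In the growth hormone and STAT5 list, 2 of 13 tested genes fell: *Igfals*, the acid-labile subunit that binds insulin-like growth factors in plasma (log2 fold change -1.05, adjusted p = 0.0335), and *Ghr*, the growth hormone receptor (-0.58, adjusted p = 0.0404). DESeq2 called 4 of the 13 lower (7.52% of all tested genes), and none rose in edgeR or DESeq2. At an unadjusted p under 0.05 in edgeR 5 were lower and 1 higher, as were 13.9% and 16.8% of all tested genes. The median of that list was -0.40. In the glucocorticoid list 1 of 13 fell, *Hsd11b1*, the enzyme that regenerates active glucocorticoid (-0.69, SE 0.10, adjusted p = 0.0134). *Pck1* was not called (-0.40, adjusted p = 0.199).

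Of 13 liver transcription factors *Cebpd* rose (0.53, adjusted p = 0.0407), and *Hnf4a*, the most abundant, was not called (0.05, adjusted p = 0.842). Of 21 genes that fold secreted serpins or carry them out of the endoplasmic reticulum, *Lman1*, the cargo receptor that exports alpha-1 antitrypsin, fell from 263 ± 33.0 to 171 ± 17.2 CPM (-0.62, adjusted p = 0.0302). The chaperone *Hsp90b1* was not called (-0.26, adjusted p = 0.485).

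**Figure D4:**
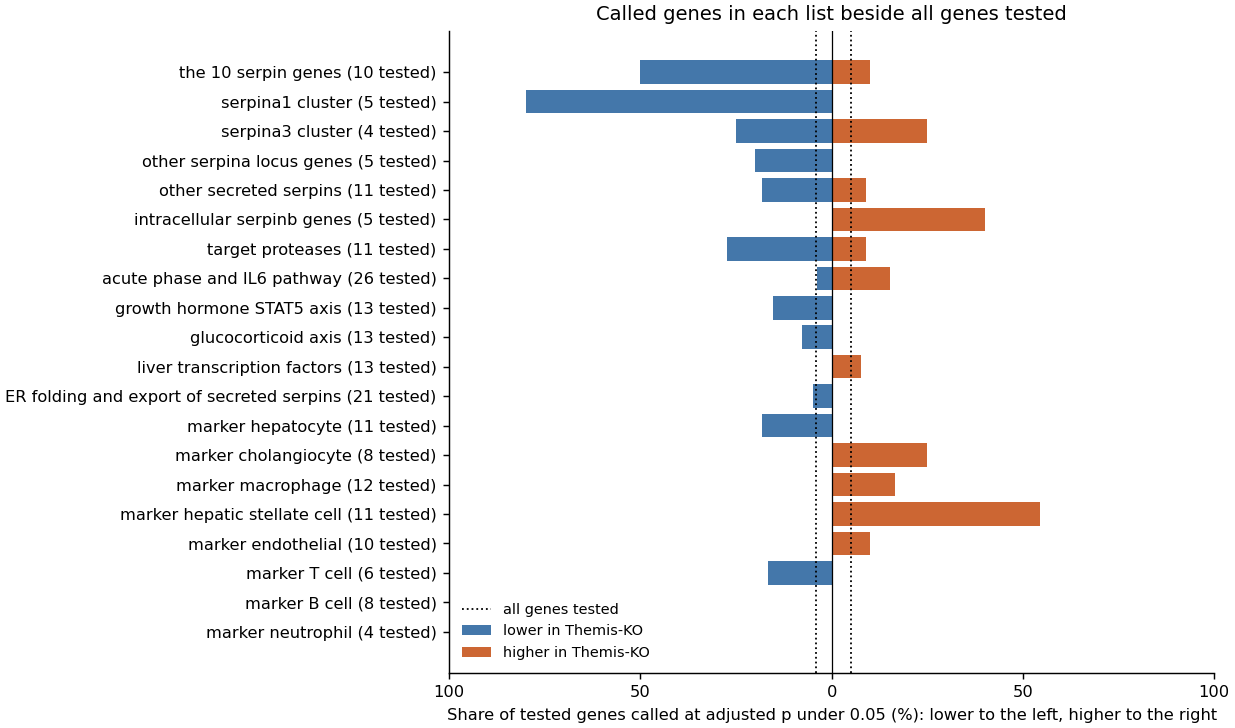
Share of the tested genes of each list that was called at an adjusted p under 0.05, with lower genes to the left and higher genes to the right, in percent. Dotted lines mark all tested genes (4.14% lower and 4.97% higher); the Serpina1 family reaches furthest to the left, with 4 of 5 copies, and the hepatic stellate cell markers furthest to the right, with 6 of 11.

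Markers of liver cell types also differed between the groups. Of 11 tested hepatocyte markers 2 fell, *Cyp2e1* (log2 fold change -1.07, adjusted p = 0.0304) and *Ass1* (-0.49, adjusted p = 0.0480). *Alb*, albumin, was not called (-0.26, adjusted p = 0.185). DESeq2 called 5 of these markers lower (7.52% of all tested genes), and none rose in edgeR or DESeq2. At an unadjusted p under 0.05 in edgeR 4 were lower and 0 higher, as were 13.9% and 16.8% of all tested genes. Their summed level was 65920 to 68900 CPM in WT and 51370 to 57390 CPM in Themis-KO, without overlap. Per 100 CPM of these markers, the Serpina1 sum stood at 24.4, 20.2 and 20.4 CPM in WT and at 18.2, 17.0 and 14.9 CPM in Themis-KO, still without overlap, and *Serpina1d* at 3.17 ± 0.274 and 1.99 ± 0.118. The Serpina3 sum overlapped on that scale, at 5.94 to 9.61 CPM in WT and 3.53 to 6.07 CPM in Themis-KO.

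Nonparenchymal markers differed by cell type. Hepatic stellate cell markers summed to 403 to 455 CPM in WT and 609 to 668 CPM in Themis-KO, with 6 of 11 called higher, among them *Col1a1* (log2 fold change 1.15, adjusted p = 0.0248) and *Col3a1* (0.94, adjusted p = 0.00936). Cholangiocyte markers summed to 168 to 208 and 400 to 632 CPM, with 2 of 8 higher, *Spp1* (1.44, adjusted p = 0.0131) and *Cldn7*. Of 12 macrophage markers edgeR called 2 higher, *Trem2* (1.49, adjusted p = 0.0255) and *Cd68* (1.06, adjusted p = 0.0369). DESeq2 called 8 of the 12 higher (8.82% of all tested genes). At an unadjusted p under 0.05 in edgeR 8 were higher and 0 lower, as were 16.8% and 13.9% of all tested genes. The sums of the macrophage markers overlapped (366 to 639 and 606 to 779 CPM). Endothelial markers had 1 of 10 higher, *Lyve1*, and summed to 314 to 355 and 359 to 406 CPM. T cell markers had 1 of 6 lower, *Cd4*, and sums of 5.09 to 6.71 and 3.96 to 8.58 CPM. None of 8 B cell markers was called by edgeR or DESeq2, and 0 passed an unadjusted p of 0.05. None of 4 neutrophil markers was called by edgeR, but all 4 were higher at an unadjusted p under 0.05 and 1 was called higher by DESeq2. *Mpo*, another gene of the neutrophil list, was too low to be tested, with at most 3 counts in every liver. The part of these shifts in the serpin differences was not tested.

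The genes whose pattern over the 6 livers was closest to each sum were found by the root mean square (RMS) difference of centered log2 CPM. For the Serpina1 sum they were *Nat8f1* (RMS difference 0.04), *Acvr2b* (0.06) and *Gls2* (0.06) among 3589 eligible genes. For the Serpina3 sum they were *AL590864.1* (0.18), the serpin *Serpine2* (0.18) and *Fbf1* (0.21) among 1568. For *Serpina6* they were *Tk1* (0.11), *C730002L08Rik* (0.12) and *Col27a1* (0.12) among 1765. With 6 livers such a ranking describes these libraries alone.

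The signs of the 6 called genes were the same without WT 1 and without WT 2, but most of their calls were lost. WT 3, the WT liver with the mitochondrial type of the Themis-KO livers, lay above all Themis-KO livers for the 5 Serpina1 copies and *Serpina3k* and below them for *Serpina3g*. In a fit with that type as a covariate, the group difference rests on WT 3 alone against the Themis-KO livers. A call lost in such a fit therefore does not show that the type accounts for the difference. With the mitochondrial type as a covariate the Serpina1 sum differed by -0.61 on the log2 scale with an SE of 0.18 (adjusted p = 0.415) and the Serpina3 sum of -0.82 (adjusted p = 0.466). None of the 10 genes was called in that edgeR fit (5 were lower and 1 higher at an unadjusted p under 0.05, as were 5.11% and 5.4% of all tested genes), which called 0.0207% of all tested genes lower and 0% higher. Leaving out a single liver moved the count of lower calls among the 10 from 0, without Themis-KO 1 (6 at an unadjusted p under 0.05, as were 9.03% of all tested genes), to 6, without Themis-KO 3, while the share of all tested genes called lower moved from 0.0814% to 13.8%. With the replicate number as a block the Serpina1 sum differed by -0.71 (adjusted p = 0.0914), and *Serpina1d* alone of the 10 was called lower (0.31% of all tested genes). *Serpina1d* was also called in 5 of the 6 fits without a liver, the Serpina1 sum, *Serpina1a*, *Serpina1b* and *Serpina1c* in 2 each, and *Serpina3k* and *Serpina3g* in 1 each. The log2 fold changes of the 6 called genes kept their sign in all 6 fits.

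**Figure D5:**
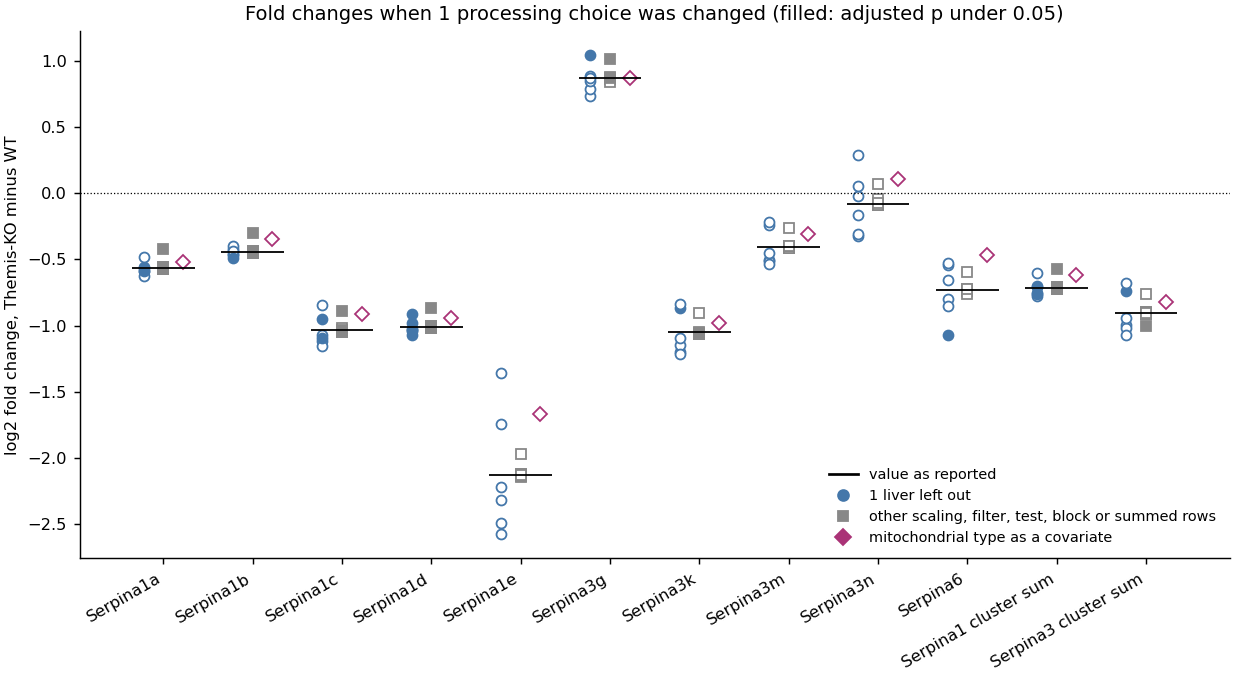
Log2 fold change (Themis-KO minus WT) of the 10 genes and the 2 sums when 1 choice was changed at a time: black lines are the reported values, blue circles fits without 1 liver, gray squares other scalings, filters, tests, the replicate block or other summed rows, and purple diamonds the fit with the mitochondrial type as a covariate. Filled symbols have an adjusted p under 0.05; *Serpina3n* is the gene whose values lie on both sides of 0, and no diamond is filled.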

How the data were processed

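Liver RNA of 3 WT and 3 Themis-KO mice was sequenced as poly(A) libraries. Per the labels and the methods, the authors trimmed reads with cutadapt 2.3, mapped them to GRCm38 with STAR 2.7.8a and estimated expected counts per gene with RSEM 1.3.3. The annotation release is not given in the sources used here. The deposited expected counts were whole numbers and needed no rounding. RSEM divides reads that match several copies by estimated abundance, so a single copy's count can shift toward its nearest relatives.

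Genes were filtered with filterByExpr, scaled by TMM and tested with edgeR 4.0.16 (R 4.3.3) by the quasi-likelihood test, WT against Themis-KO without covariates, with Benjamini-Hochberg adjustment over all 14496 genes tested. A gene was called at an adjusted p under 0.05. Family sums replaced their rows in a second fit. CPM use TMM-scaled library sizes. Library totals were 20679642 to 25649767 counts. The biological coefficient of variation was 0.157. The study calls the livers pairs but does not say what a pair shares, and the labels give numbers only. Shares were compared by exact permutation tests. Coding sequences were aligned with mafft 7.526. Gene models came from GENCODE vM21, which held 25321 of the 25403 gene IDs. Per-kilobase levels use the length of the GENCODE transcript with the longest coding sequence.

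The 10 genes and all gene lists were chosen with earlier results of these data known. Named genes were every member, in each list at most 4 called genes with the largest log2 fold change and the most abundant uncalled gene, and the 3 genes most like each sum and *Serpina6*, among genes that varied at least as much. Alternatives were DESeq2 1.42.0, other scalings and filters, a replicate block, the mitochondrial type as a covariate and leaving out each liver. The test was checked on simulated counts. Libraries did not repeat each other: the closest pair, Themis-KO 1 and Themis-KO 2, differed by a chi-square of 9.81 per degree of freedom. The next closest, WT 1 and WT 3, differed by 27.4. Themis-KO 3 differed from Themis-KO 1 by 41.3 and from Themis-KO 2 by 42.2.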

Additional observations from a re-analysis of the deposited data

How the results depend on the processing

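The Serpina1 sum was -0.6139 with the mitochondrial type as a covariate (adjusted p = 0.4152) and -0.7064 with a replicate block (adjusted p = 0.0914), neither called, and -0.7775 to -0.6005 without 1 liver (adjusted p 0.0126 to 0.118). It stayed called under the other scalings, filters and DESeq2. The Serpina3 sum passed with DESeq2 (-0.9125), RLE size factors (-0.9125), no filter (-0.9152), upper quartile scaling (-0.9005) and without the *Serpina3n* row (-1.002), and ranged from -1.067 to -0.6762 without 1 liver (adjusted p 0.0362 to 0.162). *Serpina3n* reversed its sign with the mitochondrial type (0.1061), with total counts alone (0.06898), without Themis-KO 3 (0.05587) and without WT 1 (0.2911), and ranged from -0.3259 to 0.2911 without 1 liver. Of the 10 genes, 7 were called lower with DESeq2 (7.52% of all tested genes) and 7 without a filter (3.81%), where *Serpina1e* and *Serpina6* passed, 0 with the mitochondrial type, 1 with the replicate block (*Serpina1d*, adjusted p = 0.0486), 3 at a fold of at least 2 (1.12% of all tested genes) and 0 to 6 without 1 liver. The count called higher was 0 with the mitochondrial type, the block or the fold limit and 0 to 1 without 1 liver. The 8 pathway and serpin lists with the neighbors gave 20 calls in all. They gave 35 with DESeq2, 31 without a filter, 2 with the block, 0 with the mitochondrial type and 0 to 40 without 1 liver. Of all tested genes 9.11% were called in either direction in the main fit, 16.3% with DESeq2, 8.58% without a filter and 0.428% with the block. That share was 0.0207% with the mitochondrial type and 0.136% to 28.8% without 1 liver. The cause of these changes was not tested.

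Deviations from the group means were not positively correlated between livers with the same number (-0.000624, -0.241 and -0.157). With 3 livers a group these correlations cannot exclude a pairing. The number was not used as a pairing in the main fit, and the block left 0.31% of all genes called lower. Total counts alone moved the median of all genes to 0.147 and called 2.67% of genes lower and 10% higher, against 4.14% and 4.97%. Summing all rows of a symbol gave no other value, since each symbol has 1 row. With 3 livers a group, a p of 0.1 is the smallest a permutation test of a share can give.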
